A study of Homo sapiens with 12 samples.

Results

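RNA was sequenced from 143B cells, an established human osteosarcoma line, and the data described here are the 6 of 12 samples that the titles name M-BSG (3 libraries) and M-BSG-Hot (3 libraries). They were chosen by sample title alone, and all 15407 of 24180 gene symbols that passed a low-count filter were compared. The comparison asks what was different in cells given the same named material with and without the heating that the name M-BSG-Hot carries, in a series whose title concerns borosilicate bioactive glass and magnetic hyperthermia. The remaining libraries are 3 named NC and 3 named BSG, and they serve here for the shared estimate of spread and as levels set beside the results.

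The titles tie M-BSG to a material called 5-MNP-BSG and M-BSG-Hot to the same material with a plus sign. The genotype is given as WT, and culture was at 37 °C and 5% CO2 in DMEM medium, with serum (10%) and antibiotics. A single treatment text, naming 5-MNP-BSG and an alternating magnetic field set to 20 A and 500 H, stands on all 12 samples, controls included. The labels therefore do not give the field, the temperature reached, the dose or the exposure time for each group. No label says whether replicate libraries are separate cultures. The p-values thus measure only how much these samples vary, and that variation may be technical. All values come from 1 cell line.

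As background, cells that are heated release the heat shock factor HSF1, which binds heat shock elements in the promoters of chaperone genes of the HSP70, HSP90, small HSP and J-domain families and raises their transcription, usually for a few hours. A different and faster programme, the immediate-early response, raises FOS, JUN and EGR transcription factors within minutes of growth factor, calcium or stress signals and decays again soon after. Heat is also known to act on splicing, through kinases such as CLK1 and the serine-arginine-rich (SR) proteins they phosphorylate. The labels do not say how long after heating RNA was taken.

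Total counts were 36505415 to 38163152 in the 6 libraries. M-BSG 1 stood apart from M-BSG 2 and M-BSG 3: chi-square divided by its degrees of freedom, near 1 for pure sampling noise, was 58.5 (M-BSG 2) and 34 (M-BSG 3) for its counts, and 8.51 between those others. In M-BSG-Hot it was 41.7 between replicates 1 and 3, 15.8 between 1 and 2 and 18.4 between 2 and 3. Ribosomal protein genes took 7.42% to 9.78% of counts in M-BSG and 7.50% to 9.70% in M-BSG-Hot (95% Wilson intervals within 0.01 points, counting error only), with M-BSG 1 and M-BSG-Hot 3 highest. In a principal component analysis of the 6 libraries the first component (30.0% of variance) had M-BSG 1 and M-BSG-Hot 3 at one end. The second (27.3%) had all 3 M-BSG libraries on one side of 0 and all 3 M-BSG-Hot libraries on the other.

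Few genes differed between M-BSG-Hot and M-BSG, and most of those were lower in M-BSG-Hot. The lower genes included 8 early-response genes, 8 splicing regulators and 24 long non-coding RNAs, whereas the higher genes included ID2, CXCR4, SLCO5A1 and a run of histone genes. At a Benjamini-Hochberg adjusted p under 0.05 in edgeR's quasi-likelihood test, 15 genes were higher (0.0974% of genes tested) and 92 lower (0.597%), 0.694% in both directions together. At an unadjusted p under 0.05 there were 1362 genes (8.84%). Groups without overlap were found for 967 genes on the higher side (6.28%), 1155 on the lower side (7.5%) and 13.8% in all. Of the called genes, 9 higher and 36 lower ones changed at least 2-fold. The median log2 fold change over all genes tested was -0.00083. The scaling of the libraries itself centres most genes near 0, so this median cannot show whether expression as a whole shifted.

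These counts rest on the spread shared by all 12 libraries. With the 6 libraries fitted alone, 3 genes were higher and 7 lower, and 10 of the 105 called genes that this fit tested kept their call. When each of the 6 libraries was left out in turn the counts were 3 to 10 higher and 22 to 75 lower, and 22 of the 107 calls held each time. Leaving out M-BSG 3 gave the smallest counts (3 higher, 22 lower), and leaving out M-BSG-Hot 1 gave 8 higher and 27 lower. No called gene changed sign in any of these fits. M-BSG-Hot 1 was the lowest M-BSG-Hot library for 76 of the 92 lower genes (82.6%), against 5611 of all 15407 genes tested (36.4%), and the part of this library in the result was not tested beyond leaving it out.

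**Figure D1:**
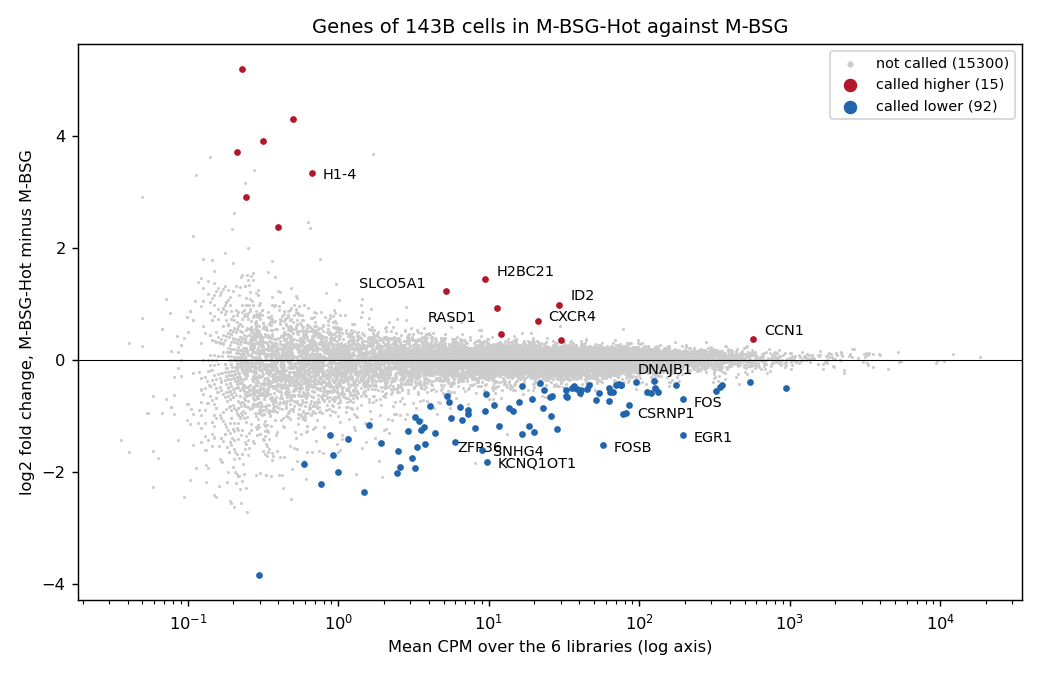
Each point is 1 of the 15407 genes tested, with the mean CPM over the 6 libraries on a log axis (x) and the log2 fold change of M-BSG-Hot minus M-BSG (y). The 92 genes called lower (blue) spread over a wide range of levels, while the 15 called higher (red) include 7 histone genes with a mean under 5 CPM.

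The calls that held under all 18 alternative settings tried were 8: ZNF92, OVGP1, LINC01355, LOC401261, SNHG4 and RASL11A, which were lower, and SLCO5A1 and H2BC21, which were higher. ZNF92, a KRAB zinc finger protein gene, had CPM values (counts scaled to the TMM-adjusted library size, listed for replicates 1, 2 and 3) of 27.2, 28.3 and 30.1 CPM across M-BSG against 9.7, 14.8 and 10.6 CPM across M-BSG-Hot. The groups did not overlap, and ZNF92 fell 2.44-fold (log2 fold change -1.29, SE 0.13, adjusted p = 0.00213). OVGP1, named for an oviductal glycoprotein, measured 24.1, 28 and 24.4 CPM across M-BSG against 8.26, 12.9 and 12.5 CPM across M-BSG-Hot. It fell 2.27-fold (log2 fold change -1.18, SE 0.14, adjusted p = 0.00373), with M-BSG-Hot 1 the lowest library. RASL11A, a small Ras-like GTPase gene, measured 8.08, 9.54 and 8.65 CPM across M-BSG against 2.26, 3.65 and 3.61 CPM across M-BSG-Hot, a fall of 2.76-fold (log2 fold change -1.46, SE 0.20, adjusted p = 0.00511). These 3 genes had lower means in NC than in M-BSG-Hot: 10.4 against 11.7 CPM for ZNF92, 3.17 against 11.2 CPM for OVGP1 and 1.72 against 3.17 CPM for RASL11A. Their M-BSG-Hot means thus lay between NC and M-BSG. In the same quasi-likelihood test of M-BSG-Hot against NC, adjusted p was 1.04e-05 for OVGP1 and 0.0324 for RASL11A. ZNF92 did not pass (adjusted p = 0.558), and its NC and M-BSG-Hot libraries overlapped.

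The other lower genes of this group were 3 non-coding or uncharacterised loci. SNHG4, a small nucleolar RNA host gene, measured 11.2, 13.8 and 16 CPM across M-BSG against 3.48, 4.83 and 5.11 CPM across M-BSG-Hot (log2 fold change -1.61, SE 0.21, adjusted p = 0.00496). LINC01355, a long intergenic non-coding RNA, measured 4.11, 3.97 and 3.65 CPM across M-BSG against 0.516, 1.13 and 1.25 CPM across M-BSG-Hot (log2 fold change -2.02, SE 0.25, adjusted p = 0.00373). LOC401261, a locus with no assigned name, measured 3.51, 4.74 and 3.95 CPM across M-BSG against 0.761, 0.966 and 1.52 CPM across M-BSG-Hot (log2 fold change -1.91, SE 0.24, adjusted p = 0.00433). Every M-BSG-Hot value of these loci lay below every M-BSG value. For SNHG4 and LINC01355 the M-BSG-Hot mean was also below that of NC (8.26 and 4.2 CPM) and BSG (6.83 and 2.9 CPM). SLCO5A1, a member of the organic anion transporter family, measured 3.01, 2.98 and 3.3 CPM across M-BSG against 8.32, 6.98 and 6.46 CPM across M-BSG-Hot. It rose 2.34-fold (log2 fold change 1.23, SE 0.15, adjusted p = 0.00373), and its M-BSG-Hot libraries were all above its NC mean of 2.72 CPM and its BSG mean of 3.2 CPM.

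Of the heat shock genes tested, only DNAJB1 passed the test, and it was lower in M-BSG-Hot. In the list of HSP70 and HSP110 genes with their partners, 0 of 13 tested members were called in either direction and the median log2 fold change was -0.04. In the list of HSP90, HSP60 and TRiC chaperones and co-chaperones, 0 of 18 were called (median -0.01, range -0.10 to 0.10). Of 3 small heat shock protein genes tested and 4 heat shock factor genes, 0 were called. Of all genes tested 0.694% were called, so such counts in lists of these sizes say nothing particular of heat shock genes.

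HSPA1A and HSPA1B encode the classical heat-inducible HSP70 from near-identical genes, so reads may be shared between them and their separate values are uncertain. HSPA1A measured 18.6, 17.1 and 19.6 CPM across M-BSG against 19.8, 23.3 and 26.5 CPM across M-BSG-Hot. All M-BSG-Hot values were above all M-BSG values, but the difference did not pass the test (log2 fold change 0.33, 95% interval 0.08 to 0.58, adjusted p = 0.35). HSPA1B measured 30.4, 28.1 and 33.5 CPM across M-BSG against 23.4, 27.6 and 34.4 CPM across M-BSG-Hot, with overlapping groups (log2 fold change -0.11, 95% interval -0.38 to 0.17). HSPA6, an HSP70 gene that is close to silent without stress, stayed near the detection limit at 0.137, 0.24 and 0.164 CPM across M-BSG against 0.136, 0.134 and 0.353 CPM across M-BSG-Hot. HSPH1, the HSP110 gene, measured 166, 176 and 177 CPM across M-BSG against 193, 168 and 143 CPM across M-BSG-Hot, and BAG3, a co-chaperone under HSF1 control, 132, 134 and 131 CPM across M-BSG against 142, 134 and 145 CPM across M-BSG-Hot. Their intervals ran from -0.24 to 0.16 and from -0.06 to 0.24 on the log2 scale. Per length, the constitutive HSC70 gene HSPA8 stood at 2059 FPKM in M-BSG and 1834 FPKM in M-BSG-Hot, and HSPA1A at 7.64 and 9.54 FPKM.

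HSP90AA1, the stress-inducible HSP90 gene, measured 3454, 3180.5 and 3275 CPM across M-BSG against 3281, 3217 and 3041 CPM across M-BSG-Hot, with an interval of -0.20 to 0.09 for its log2 fold change. HSPB1, the gene of HSP27, measured 147, 109.5 and 119.9 CPM across M-BSG against 129, 129 and 157 CPM across M-BSG-Hot, and its groups overlapped. HSPB8, a small heat shock protein of the BAG3 complex, was nearly absent, with 0.11, 0.16 and 0.245 CPM across M-BSG against 0.544, 0.537 and 0.462 CPM across M-BSG-Hot. Its groups did not overlap, but its difference did not pass (log2 fold change 1.56, adjusted p = 0.148), and its NC mean of 0.704 CPM was above both. Among the 13 J-domain co-chaperones, which deliver clients to HSP70, 0 were higher and 1 was lower, with a median of -0.07. This was DNAJB1, the main stress-inducible HSP40 gene, at 148, 144 and 157 CPM across M-BSG against 97.7, 105 and 114 CPM across M-BSG-Hot (log2 fold change -0.50, SE 0.08, adjusted p = 0.00864). DNAJB1 fell 1.42-fold, to a mean still above the 84.9 CPM of NC, and it lost its call without M-BSG 3 (adjusted p = 0.0777), without M-BSG-Hot 1 (adjusted p = 0.058) and with the 6 libraries alone (adjusted p = 0.0689).

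**Figure D2:**
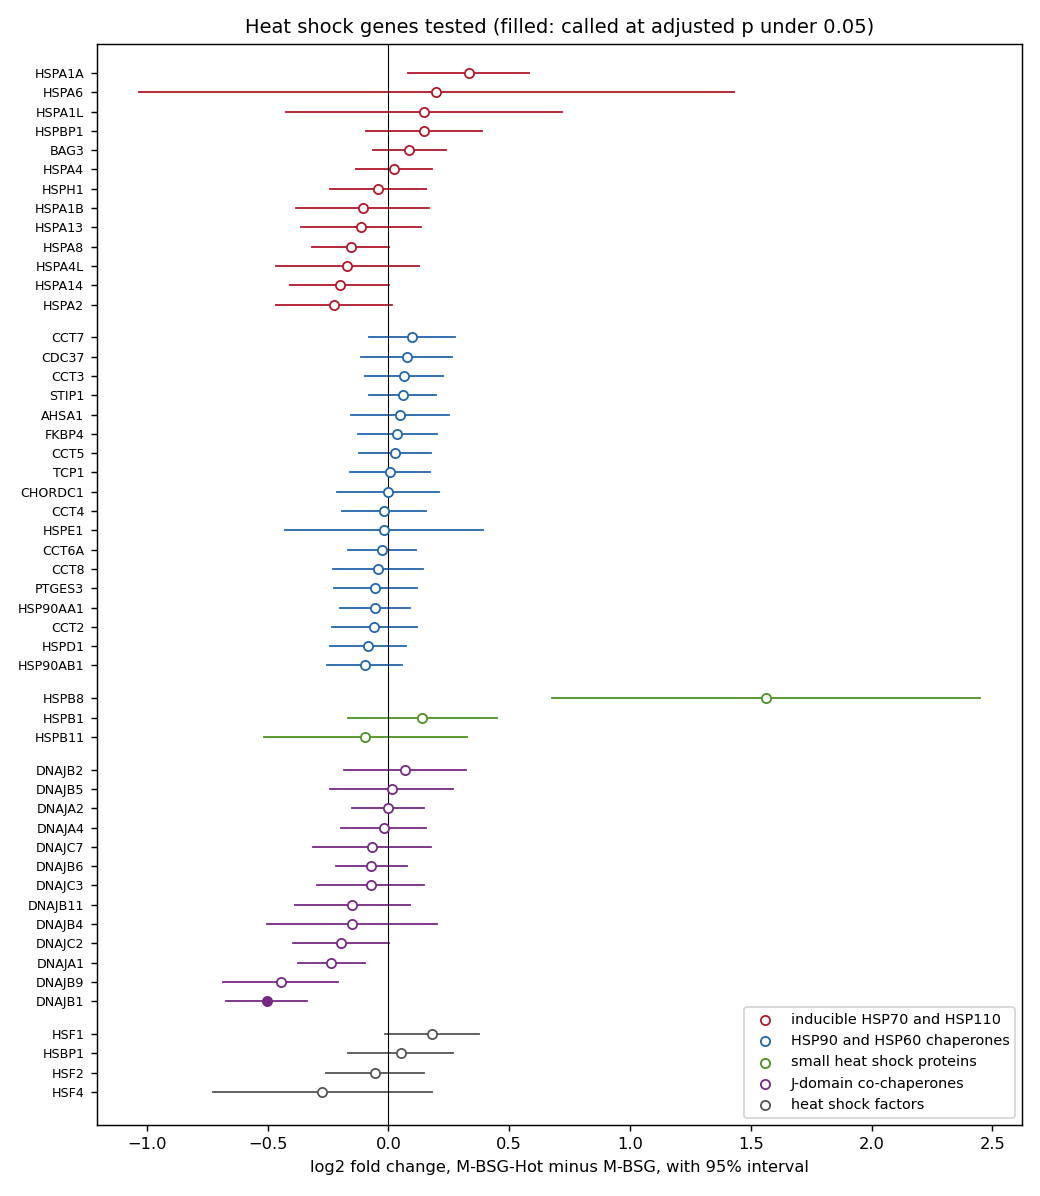
Log2 fold change of M-BSG-Hot minus M-BSG (x) with its 95% interval for each of the tested heat shock genes (y), grouped by family. DNAJB1, the 1 filled point, lies below 0, and HSPA1A at 0.33 is the highest member of the HSP70 list and was not called.

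Promoter sequence was set beside these values because heat shock elements are where HSF1 binds. The windows are RefSeq's, on build GRCh38.p14, 250 bases before to 50 after the annotated start, matched by gene symbol. The heat shock element was searched as GAANNTTC or TTCNNGAA, where N is any base and each form reads the same on both strands; the forms can overlap one another in longer arrays. Such a match was present in 12 of 43 heat shock chaperone promoters (27.9%), 2 of 66 promoters of lower genes (3.03%), 2 of 12 promoters of higher genes (16.7%), 9.90% of the 12052 promoters of tested genes and 13.7% of all 27305 promoters. The 250 bases before the start are printed for HSPA1A, which has a match in capitals beginning 106 bases before the start, and for DNAJB1, in which these letters were not found. A single annotated start per symbol was searched, so an element near another start of DNAJB1 would have been missed. HSPA1A lies at chr6:31815293-31815542, plus strand and DNAJB1 at chr19:14529272-14529521, minus strand.
HSPA1A: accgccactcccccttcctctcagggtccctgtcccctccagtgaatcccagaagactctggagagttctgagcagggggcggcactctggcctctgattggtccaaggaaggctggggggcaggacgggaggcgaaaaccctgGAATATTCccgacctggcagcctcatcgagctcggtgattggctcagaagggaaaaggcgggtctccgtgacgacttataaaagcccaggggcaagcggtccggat
DNAJB1: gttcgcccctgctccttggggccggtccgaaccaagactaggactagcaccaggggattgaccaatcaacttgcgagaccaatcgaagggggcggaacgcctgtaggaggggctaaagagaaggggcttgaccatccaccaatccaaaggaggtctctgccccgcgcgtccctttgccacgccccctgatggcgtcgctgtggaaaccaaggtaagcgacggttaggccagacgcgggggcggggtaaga

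Part of the early-response genes were lower in M-BSG-Hot. Of 28 tested members, 0 were higher and 8 were lower: CSRNP1, ZFP36, EGR1, FOSB, JUND, MAFF, FOS and IER5. The list's median log2 fold change was -0.30, and 19 of its 28 members were below 0, as were 7738 of all 15407 genes tested. Groups did not overlap for 12 members on the lower side and 4 on the higher side. Over all genes tested, 7.5% were apart on the lower side, 6.28% on the higher side, and 0.597% were called lower. With the 6 libraries alone 0 of 27 members passed, with a median of -0.16. M-BSG-Hot 1 was the lowest M-BSG-Hot library for each of the 8 genes, and without it 4 of the 28 passed and the median was -0.19.

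FOS, FOSB and JUND encode subunits of AP-1, a dimeric transcription factor. FOS measured 224, 248 and 256 CPM across M-BSG against 109, 162 and 175 CPM across M-BSG-Hot. It fell 1.63-fold (log2 fold change -0.70, SE 0.14, adjusted p = 0.039). FOSB measured 80.5, 82.1 and 91.3 CPM across M-BSG against 16.3, 39.4 and 32.7 CPM across M-BSG-Hot and fell 2.87-fold (log2 fold change -1.52, SE 0.23, adjusted p = 0.00773). In both genes the groups were clearly separated, although M-BSG-Hot 1 lay well below the others of its group. Both remained far above NC in M-BSG-Hot, where FOS averaged 149 CPM against 4.33 CPM in NC and FOSB 29.4 against 2.3 CPM. JUND measured 34.6, 27.3 and 32.4 CPM across M-BSG against 17.7, 20.2 and 21.5 CPM across M-BSG-Hot (log2 fold change -0.67, SE 0.12, adjusted p = 0.0234) with an M-BSG-Hot mean of 19.8 CPM beside 16.4 CPM in NC. JUN itself was not called and lay on the other side of 0, with 347, 357 and 332 CPM across M-BSG against 367, 414 and 444 CPM across M-BSG-Hot (log2 fold change 0.24, adjusted p = 0.264). FOSL1 and JUNB were not called either (log2 fold changes -0.09 and -0.49).

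EGR1, a zinc finger factor induced through serum response factor, measured 272, 243 and 327 CPM across M-BSG against 67.7, 136 and 129.9 CPM across M-BSG-Hot. It fell 2.53-fold (log2 fold change -1.34, SE 0.20, adjusted p = 0.00767), and M-BSG-Hot 1 was the lowest library. EGR2 and EGR3 had log2 fold changes of -1.33 and -0.79 without overlap of the groups, but missed the threshold (adjusted p = 0.0578 and 0.0528). ZFP36, which encodes tristetraprolin, a protein that binds AU-rich elements and speeds the decay of mRNAs such as FOS, measured 23.5, 22.5 and 25.3 CPM across M-BSG against 6.2, 11.7 and 10.7 CPM across M-BSG-Hot (log2 fold change -1.32, SE 0.19, adjusted p = 0.00749). CSRNP1, a nuclear protein gene, measured 94.4, 105 and 124 CPM across M-BSG against 45.7, 61.4 and 61.2 CPM across M-BSG-Hot (log2 fold change -0.94, SE 0.12, adjusted p = 0.00373). Both genes were separated by group in all 6 libraries. MAFF, a small MAF basic leucine zipper factor, measured 84.5, 66.3 and 84.3 CPM across M-BSG against 34.1, 53.6 and 53.7 CPM across M-BSG-Hot (log2 fold change -0.73, SE 0.15, adjusted p = 0.039), and IER5, an immediate-early gene, 89.9, 83.6 and 86.3 CPM across M-BSG against 52.9, 67.2 and 70.8 CPM across M-BSG-Hot (log2 fold change -0.44, SE 0.09, adjusted p = 0.0473).

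The nuclear receptors NR4A1 and NR4A2 had log2 fold changes of 0.01 and 0.02, and MYC and KLF4 of 0.38 and 0.30, none of them called. CSRNP1, ZFP36, EGR1 and FOSB kept their calls when each of the 6 libraries was left out. FOS lost its call without M-BSG 2, M-BSG 3, M-BSG-Hot 1 or M-BSG-Hot 2, JUND without M-BSG 1, M-BSG 3, M-BSG-Hot 1 or M-BSG-Hot 2, MAFF without the same libraries as JUND, and IER5 without any of the libraries other than M-BSG-Hot 3. Their largest adjusted p was reached without M-BSG 3, at 0.2 for FOS, 0.142 for JUND, 0.207 for MAFF and 0.2 for IER5. With the 6 libraries alone the adjusted p of the 8 genes ran from 0.0528 to 0.23.

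**Figure D3:**
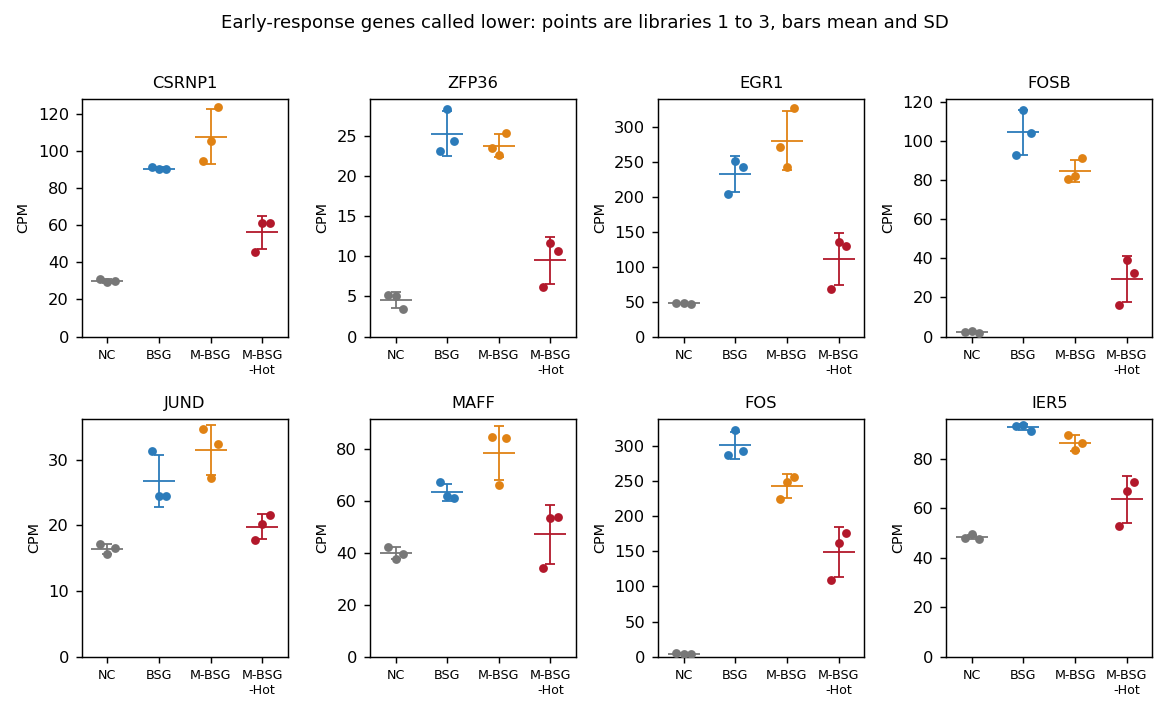
CPM of the 8 early-response genes called lower, on linear axes from 0, with a point for each library and the mean and SD of each group of 3. In every panel the M-BSG-Hot points lie below the M-BSG points, and in all panels but that of MAFF they lie above the NC mean.

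The promoters of these genes were searched for the cAMP response element TGACGTCA, the AP-1 element TGANTCA and, chosen after values had been seen, the CArG box that serum response factor binds. Both strands were read, and the cAMP and AP-1 strings do not contain one another. Of the 8 lower early-response genes, 2 had the cAMP element (JUND and MAFF), 0 the AP-1 element, 1 the CArG box (EGR1) and 1 a heat shock element (IER5). Among promoters of all tested genes these shares were 3.15%, 4.95%, 1.05% and 9.90%, and among all 27305 promoters 1.98%, 7.76%, 1.29% and 13.7%. The windows of EGR1 (chr5:138465229-138465478, plus strand), JUND (chr19:18281623-18281872, minus strand) and MAFF (chr22:38201744-38201993, plus strand) are shown as the ones with a cAMP element or a CArG box. The window of IER5 is not printed. Matches are in capitals and begin 105 and 83 bases before the EGR1 start, 200 bases before that of JUND and 54 bases before that of MAFF.
EGR1: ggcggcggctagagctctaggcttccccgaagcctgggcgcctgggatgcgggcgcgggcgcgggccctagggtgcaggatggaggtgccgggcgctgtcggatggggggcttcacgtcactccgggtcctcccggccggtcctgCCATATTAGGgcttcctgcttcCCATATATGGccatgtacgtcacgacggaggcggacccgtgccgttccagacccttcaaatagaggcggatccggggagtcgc
JUND: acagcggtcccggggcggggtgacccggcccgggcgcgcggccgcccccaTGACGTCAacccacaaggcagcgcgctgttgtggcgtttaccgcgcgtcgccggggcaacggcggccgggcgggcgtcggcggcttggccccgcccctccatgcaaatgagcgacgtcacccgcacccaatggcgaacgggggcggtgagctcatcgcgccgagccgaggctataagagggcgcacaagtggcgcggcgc
MAFF: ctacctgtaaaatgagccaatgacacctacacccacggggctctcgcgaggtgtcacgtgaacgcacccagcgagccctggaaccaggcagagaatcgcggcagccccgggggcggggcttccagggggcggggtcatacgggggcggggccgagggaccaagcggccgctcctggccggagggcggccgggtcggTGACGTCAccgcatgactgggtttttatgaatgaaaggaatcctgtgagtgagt

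Several regulators of splicing were lower in M-BSG-Hot as well. In the list of splicing kinases, cyclins and SR proteins, 8 of 25 tested members were lower and 0 higher, and the median log2 fold change was -0.22. Groups did not overlap for 16 members on the lower side and 4 on the higher side. Over all genes tested, 7.5% were apart on the lower side, 6.28% on the higher side, and 0.597% were called lower. CCNL1, the cyclin L1 gene, whose product pairs with kinases that act on splicing, measured 163, 149 and 168 CPM across M-BSG against 95.1, 115 and 111 CPM across M-BSG-Hot (log2 fold change -0.58, SE 0.08, adjusted p = 0.00597). CLK1, a kinase that phosphorylates SR proteins, measured 82, 75.2 and 81 CPM across M-BSG against 45.9, 56.8 and 58.6 CPM across M-BSG-Hot (log2 fold change -0.56, SE 0.09, adjusted p = 0.0147). SRSF6, an SR protein gene, measured 397, 387 and 414 CPM across M-BSG against 264, 289 and 302 CPM across M-BSG-Hot (log2 fold change -0.49, SE 0.07, adjusted p = 0.00669). All 3 genes were separated by group. LUC7L3, related to a U1 particle protein, fell 1.5-fold, from 144 ± 5.87 to 96.2 ± 9.92 CPM (mean ± SD of 3 libraries; log2 fold change -0.59, SE 0.09, adjusted p = 0.00831), and TRA2A, a splicing enhancer protein gene, 1.37-fold, from 81 ± 3.68 to 59.1 ± 2.62 CPM (log2 fold change -0.45, SE 0.07, adjusted p = 0.0106).

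SRSF5, SRSF10 and PNISR completed the 8, with log2 fold changes of -0.56, -0.45 and -0.44 and adjusted p = 0.0287, 0.0287 and 0.0155. The SR protein genes SRSF3 and SRSF7 did not pass, at -0.32 and 0.12. PNN, which encodes the splicing-associated protein pinin and is outside the list, measured 407, 407 and 408 CPM across M-BSG against 304, 298 and 291 CPM across M-BSG-Hot and fell 1.37-fold (log2 fold change -0.45, SE 0.06, adjusted p = 0.00511). PNN was chosen after its values were seen, and its M-BSG libraries differed by less than 1 CPM. Without M-BSG 3, 2 of the 25 list members passed, and without M-BSG-Hot 1, 3 passed. CCNL1 kept its call without each of the 6 libraries. SRSF6 and LUC7L3 lost it without M-BSG 3 (adjusted p = 0.0553 and 0.0625), CLK1 without M-BSG 3 or M-BSG-Hot 1 (up to 0.0989), and TRA2A without M-BSG-Hot 1 (0.08). SRSF5 lost it without M-BSG 1, M-BSG 3, M-BSG-Hot 1 or M-BSG-Hot 2, and SRSF10 and PNISR without any library other than M-BSG 1 and M-BSG-Hot 2, at up to 0.156, 0.172 and 0.121. With the 6 libraries alone 0 of 25 passed (adjusted p of the 8 from 0.0627 to 0.157), with a median of -0.22.

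**Figure D4:**
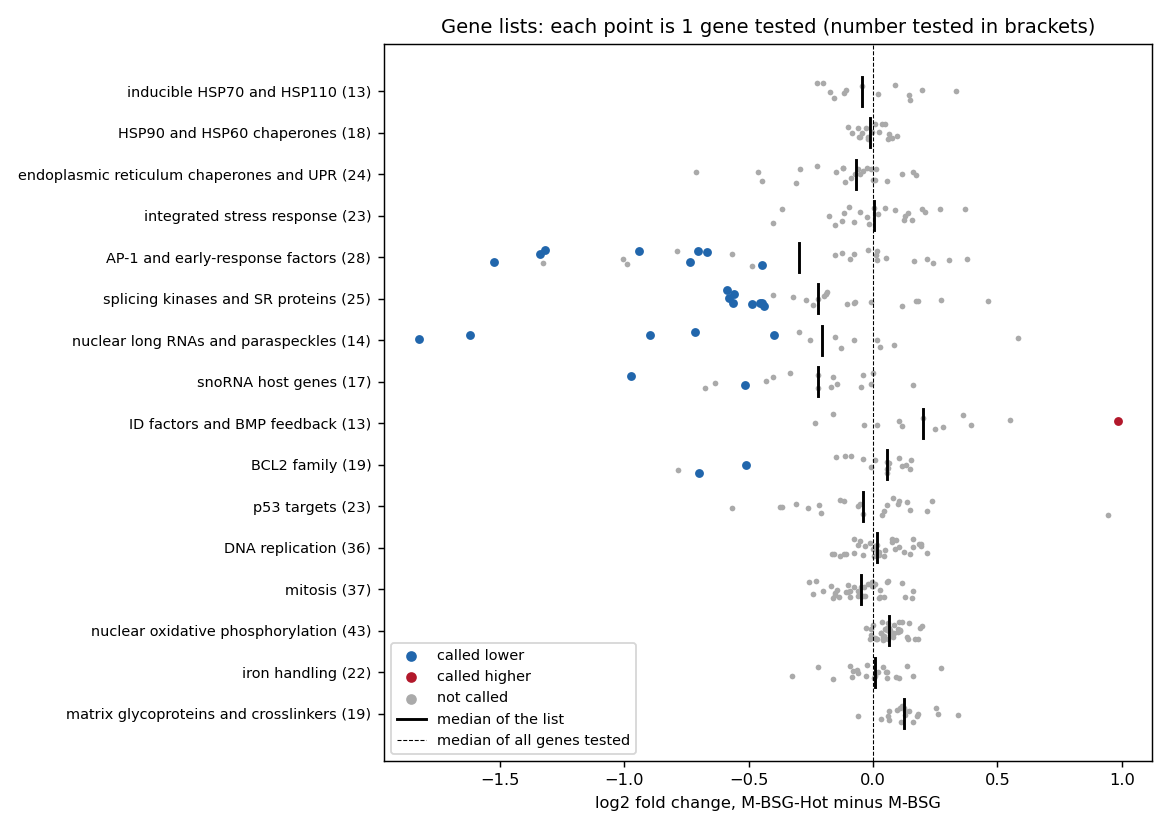
Log2 fold change of M-BSG-Hot minus M-BSG (x) for each tested gene of 16 lists (y, number tested in brackets), with the median of each list as a bar and that of all genes as a dashed line. Genes called lower number 8 of 28 in the early-response list, 8 of 25 in the splicing list and 5 of 14 in the nuclear RNA list, against 0.597% of all genes tested. Both heat shock lists shown have medians near 0.

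Long non-coding RNAs made up 24 of the 92 lower genes (26.1%) and 0 of the 15 higher genes by RefSeq gene type, against 1691 of 15407 genes tested (11.0%). In the list of nuclear long RNAs and paraspeckle parts, 5 of 14 tested members were lower and 0 higher, with a median of -0.20. Of all genes tested 0.597% were lower. KCNQ1OT1, an imprinted antisense RNA within KCNQ1, measured 8.9, 16.9 and 19.4 CPM across M-BSG against 3.4, 5.45 and 3.91 CPM across M-BSG-Hot (log2 fold change -1.83, SE 0.29, adjusted p = 0.0105). MIR22HG, the host transcript of miR-22, measured 68.7, 59 and 65.1 CPM across M-BSG against 30.1, 42.7 and 44.5 CPM across M-BSG-Hot (log2 fold change -0.72, SE 0.12, adjusted p = 0.0144). MIR23AHG and MIR17HG fell by 0.90 and 1.62 on the log2 scale (adjusted p = 0.0234 and 0.0446). MIR222HG lay above 0 at 0.58 but did not pass (adjusted p = 0.215). Host transcripts of microRNAs therefore did not all lie on the same side.

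SFPQ, the fifth lower member, encodes a paraspeckle protein and measured 578, 667 and 624 CPM across M-BSG against 460.3, 489 and 468 CPM across M-BSG-Hot (log2 fold change -0.40, SE 0.07, adjusted p = 0.0218). NEAT1, the RNA scaffold of paraspeckles, had overlapping groups with 29.5, 22.9 and 26.3 CPM across M-BSG against 21, 25.2 and 19.8 CPM across M-BSG-Hot (log2 fold change -0.25, 95% interval -0.52 to 0.02). MALAT1 stood at -0.30 (adjusted p = 0.36). Each of the 5 lower members lost its call without M-BSG 3. KCNQ1OT1 then had an adjusted p of 0.0724, MIR22HG of 0.0829, SFPQ of 0.137, MIR23AHG of 0.156 and MIR17HG of 0.156. KCNQ1OT1 also lost it without M-BSG-Hot 1 (adjusted p = 0.0823), SFPQ and MIR23AHG without M-BSG 2, M-BSG-Hot 1 or M-BSG-Hot 3, and MIR17HG without M-BSG 1, M-BSG 2 or M-BSG-Hot 2. Whether counting used strand is not given in the sources used here, so KCNQ1OT1 and the antisense and divergent RNAs cannot be told apart from reads of the genes they overlap.

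Among 17 small nucleolar RNA host genes tested, 2 were lower, 0 higher, and 15 lay below 0 (median -0.22). Of all 15407 genes tested, 0.597% were lower and 7738 lay below 0. SNHG3 measured 120.1, 86.8 and 101 CPM across M-BSG against 40.8, 56.8 and 59.4 CPM across M-BSG-Hot (log2 fold change -0.97, SE 0.17, adjusted p = 0.0215) and SNHG12 measured 49.7, 42.7 and 42.8 CPM across M-BSG against 27.5, 31.7 and 35.5 CPM across M-BSG-Hot (log2 fold change -0.52, SE 0.11, adjusted p = 0.0464). SNHG1 had a log2 fold change of -0.40 and did not pass (adjusted p = 0.113), and GAS5 was at 0.00. SNHG3 lost its call without M-BSG 3, M-BSG-Hot 1 or M-BSG-Hot 2 (adjusted p up to 0.105), and SNHG12 without any library but M-BSG-Hot 3 (up to 0.218). Further lower non-coding RNAs, named by the size of their change, were LINC00641 (30.9, 46.3 and 42.6 CPM across M-BSG against 14.6, 19.9 and 16.7 CPM across M-BSG-Hot), ADIRF-AS1 (34.2, 33 and 36.5 CPM across M-BSG against 12.5, 20.9 and 18.6 CPM across M-BSG-Hot) and MRPL20-DT (7.97, 6.69 and 7.83 CPM across M-BSG against 2.72, 3.54 and 4.67 CPM across M-BSG-Hot). Their log2 fold changes were -1.23, -1.0 and -1.04 (adjusted p = 0.0152, 0.00669 and 0.0197). ADIRF-AS1 kept its call without each library, LINC00641 lost it without M-BSG 2, M-BSG 3, M-BSG-Hot 1 or M-BSG-Hot 3 (up to 0.105), and MRPL20-DT without M-BSG 3, M-BSG-Hot 1 or M-BSG-Hot 2 (up to 0.115).

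Survival and signalling genes were also among the lower ones, in small numbers. In the BCL2 family 2 of 19 tested members were lower and 0 higher, with a median of 0.06, where 0.597% of all genes tested were lower. MCL1, which protects mitochondria from permeabilisation, measured 1017, 1162 and 1143 CPM across M-BSG against 741, 825 and 769 CPM across M-BSG-Hot and fell 1.42-fold (log2 fold change -0.51, SE 0.08, adjusted p = 0.00831). BCL2L11 encodes BIM, a protein that promotes cell death, and measured 21.5, 23.2 and 27 CPM across M-BSG against 13.6, 16.6 and 13.9 CPM across M-BSG-Hot (log2 fold change -0.70, SE 0.14, adjusted p = 0.0375). The lower pair thus held a member of each role. MCL1 lost its call without M-BSG 3 or M-BSG-Hot 1 (adjusted p up to 0.0724) and BCL2L11 without any library but M-BSG 1 (up to 0.216).

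NFKBIA, the gene of the NF-kB inhibitor IkBa, was the 1 lower gene of 14 in its list, with 77.1, 75.9 and 77.3 CPM across M-BSG against 43.3, 53.5 and 58 CPM across M-BSG-Hot (log2 fold change -0.57, SE 0.11, adjusted p = 0.0287), and lost its call without any library but M-BSG-Hot 3 (adjusted p up to 0.156). In the hypoxia and glycolysis list 2 of 30 were lower: ADM, the gene of the vasodilator peptide adrenomedullin (80.7, 68.2 and 74.1 CPM across M-BSG against 50.1, 55.3 and 51.8 CPM across M-BSG-Hot, log2 fold change -0.50, adjusted p = 0.0137), and SLC2A3, the glucose transporter GLUT3 (44.7, 51.8 and 49.8 CPM across M-BSG against 32.9, 34.6 and 32.9 CPM across M-BSG-Hot, log2 fold change -0.54, adjusted p = 0.0146). The glycolytic enzyme gene PFKL in that list stood at 0.23 and was not called. ADM lost its call without M-BSG 3 or M-BSG-Hot 1 (up to 0.0869) and SLC2A3 without M-BSG 2, M-BSG 3 or M-BSG-Hot 1 (up to 0.0992). HMGCS1, of the mevalonate pathway, was the 1 lower gene of 24 in cholesterol synthesis (log2 fold change -0.39, adjusted p = 0.0453), and it lost its call without any library but M-BSG 1 (up to 0.236). Of all genes tested 0.597% were lower, so these small counts say little of their lists.

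The remaining genes among the 15 with the lowest log2 fold changes (of 67 that met the naming rule) were ARID5B, NUDT17 and MAP3K8. ARID5B, a chromatin-associated factor, measured 8.3, 12 and 13.7 CPM across M-BSG against 4.67, 5.29 and 4.64 CPM across M-BSG-Hot (log2 fold change -1.22, SE 0.23, adjusted p = 0.0287). NUDT17, of the Nudix hydrolase family, measured 14.5, 16.7 and 17.3 CPM across M-BSG against 4.65, 8.67 and 8.07 CPM across M-BSG-Hot (log2 fold change -1.18, SE 0.19, adjusted p = 0.0116). MAP3K8, a kinase upstream of ERK, measured 8.43, 9.75 and 8.92 CPM across M-BSG against 3.04, 4.99 and 4.86 CPM across M-BSG-Hot (log2 fold change -1.07, SE 0.16, adjusted p = 0.00831). In all 3 the M-BSG-Hot mean lay between NC and M-BSG, with NC at 3.53, 4.43 and 2.57 CPM. In the quasi-likelihood test of M-BSG-Hot against NC, MAP3K8 passed (adjusted p = 0.0256), while ARID5B and NUDT17 did not (0.352 and 0.0709). MAP3K8 kept its call without each library, NUDT17 lost it without M-BSG 3 (adjusted p = 0.0777), and ARID5B lost it without any library but M-BSG 1 (up to 0.173).

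Of the higher genes, 8 met the naming rule: H2BC21, SLCO5A1, ID2, RASD1, CXCR4, ZSCAN32, CCN1 and GALNT18. ID2, which encodes an inhibitor of basic helix-loop-helix factors and a target of BMP signalling, measured 23.1, 19.6 and 16.7 CPM across M-BSG against 40.1, 33.7 and 43.4 CPM across M-BSG-Hot and rose 1.98-fold (log2 fold change 0.98, SE 0.14, adjusted p = 0.00749). Its mean was 1.42 CPM in NC and 43.5 CPM in BSG, the latter above its M-BSG-Hot mean of 39.1 CPM. ID2 was the 1 higher gene of 13 in the list of ID factors and BMP feedback genes, which had a median of 0.20. Of all genes tested 0.0974% were higher. ID1 lay on the same side at 0.55 with 72.1, 64.1 and 53 CPM across M-BSG against 96.9, 85.9 and 94.4 CPM across M-BSG-Hot, its groups apart, and missed the threshold (adjusted p = 0.059), and ID3 stood at 0.28. ID2 lost its call without M-BSG 3 (adjusted p = 0.0553) and held it with the 6 libraries alone (adjusted p = 0.0475). The inhibitory SMAD genes SMAD6 and SMAD7, also BMP and TGF-beta targets, stood at -0.16 and -0.23, uncalled.

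RASD1, a Ras-like gene induced by dexamethasone, measured 7.91, 9.27 and 6.05 CPM across M-BSG against 11.4, 15.3 and 17.6 CPM across M-BSG-Hot (log2 fold change 0.93, SE 0.18, adjusted p = 0.0351). Its mean was 0.155 CPM in NC and 21.1 CPM in BSG, the latter above its M-BSG-Hot mean of 14.8 CPM. RASD1 was the 1 higher gene of 10 in the steroid and stress list, where 0 were lower, and SGK1, a kinase gene of that list, was at 0.11 and not called. CXCR4, the receptor of the chemokine CXCL12, measured 14.4, 16.5 and 17.5 CPM across M-BSG against 26.6, 22.8 and 29 CPM across M-BSG-Hot (log2 fold change 0.70, SE 0.11, adjusted p = 0.00831). Its mean was 8.81 CPM in NC and 24.4 CPM in BSG, the latter near its M-BSG-Hot mean of 26.1 CPM. CCN1, a matricellular protein gene and target of YAP and TEAD, measured 494, 504 and 491 CPM across M-BSG against 698, 606 and 637 CPM across M-BSG-Hot (log2 fold change 0.38, SE 0.07, adjusted p = 0.0287). Its mean was 556 CPM in NC and 583 CPM in BSG. Its relative CCN2 stood at 0.13, uncalled. CCN1 was the 1 higher gene of 12 YAP and TEAD targets, with 0 lower. Of all genes tested 0.0974% were higher, so 1 call in a list of this size, here or in the steroid and stress list, says little of the list. CXCR4 kept its call without each library in turn, but not with M-BSG 1 and M-BSG-Hot 3 both left out (adjusted p = 0.084) nor with M-BSG 1 and M-BSG-Hot 1 both left out (adjusted p = 0.0744), nor with the 6 libraries alone (adjusted p = 0.0687). RASD1 lost its call without M-BSG 1, M-BSG 3, M-BSG-Hot 2 or M-BSG-Hot 3 (up to 0.197) and CCN1 without any library but M-BSG-Hot 2 (up to 0.177). ZSCAN32, a zinc finger gene, and GALNT18, of a glycosyltransferase family, had log2 fold changes of 0.47 and 0.36 (adjusted p = 0.0287 and 0.0287). Both genes had tight groups, 10.1, 10.3 and 9.93 CPM across M-BSG against 14.6, 14.2 and 13.1 CPM across M-BSG-Hot for ZSCAN32, yet ZSCAN32 lost its call without any library but M-BSG-Hot 3 (up to 0.165) and GALNT18 without any of the 6 (up to 0.165).

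Replication-dependent histone genes, taken by symbol, formed the other part of the higher genes, 8 of the 15, against 28 of all 15407 genes tested. Replication-dependent histone genes encode the core and linker histones that package new DNA, and most of their transcripts end in a stem-loop and carry no poly(A) tail. H2BC21, whose transcript can also be polyadenylated and made outside S phase, measured 5.72, 5.67 and 3.9 CPM across M-BSG against 11.6, 13.7 and 16.4 CPM across M-BSG-Hot and rose 2.72-fold (log2 fold change 1.44, SE 0.19, adjusted p = 0.00478). Its M-BSG-Hot mean of 13.9 CPM was near its BSG mean of 15.8 CPM. The other 7 were H1-4, H1-5, H2BC9, H2BC10, H3C8, H3C13 and H4C5, all with few counts. The M-BSG-Hot mean was the highest of the groups for each of the 7, and only H2BC9 and H3C8 had an M-BSG mean below NC. For H2BC9 the means were 0.182 CPM in NC, 0.272 in BSG, 0.027 in M-BSG and 0.397 in M-BSG-Hot. For H3C8 they were 0.115, 0.332, 0.054 and 0.432 CPM in the same order.

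H1-4, a linker histone, had 9, 3 and 1 counts in the M-BSG libraries against 53, 53 and 29 for M-BSG-Hot, a ratio of summed counts of 10.4 (exact 95% interval 5.86 to 20.0, counting error only). H1-5 had 4, 1 and 0 counts against 41, 37 and 28, a ratio of 21.2 (8.79 to 66.5). H3C13 had 1 count in all M-BSG libraries together and 50 in M-BSG-Hot. The lowest M-BSG-Hot library was above the highest M-BSG library for each of these genes. Adjusted p was 0.0361 for H1-4, 0.0287 for H1-5, 0.027 for H2BC9, 0.0287 for H2BC10, 0.0287 for H3C8, 0.0122 for H3C13 and 0.0287 for H4C5. Each of the 7 lost its call without at least 2 of the 6 libraries (adjusted p up to 0.208 for H1-4, without M-BSG 3), and with the 6 libraries alone none of the 5 that could be tested passed (0.0528 to 0.123).

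The family was therefore summed over all its 61 symbols, a group formed by symbol after values had been seen. In the list of histone genes, 2 of 15 tested members were higher (H2BC21 and H1-4) and 0 lower, with a median of 0.07. Of all genes tested 0.0974% were higher and 0.597% lower. Of the 61 symbols, 28 were tested, 8 of them higher and 0 lower, and 33 failed the count filter; 13 of the 28 had fewer than 10 counts in each M-BSG library and had entered through groups with higher counts, so the count of calls is no independent support. Summed CPM was 75.4, 67.2 and 68.6 for M-BSG against 93.4, 101 and 108 for M-BSG-Hot. Without H2BC21 and H2BC12, the most counted members, it was 13, 11.5 and 14 against 25.2, 29.5 and 27.0. Over the 33 symbols that failed the filter it was 0.903, 1.09 and 1.17 against 3.89, 6.20 and 4.81. All of these sums were higher in each M-BSG-Hot library than in each M-BSG library. The full sum and the sum without H2BC21 and H2BC12 contain called genes, so they partly restate the calls and are no independent support. The mean was higher in M-BSG-Hot for 56 of the 61 symbols, the 8 called ones among them. Over all genes tested, 7669 of 15407 had a log2 fold change above 0. Summed CPM over all 61 symbols was 56.3 to 60.6 in NC and 83.6 to 99.5 in BSG. The 33 symbols that failed the filter gave 0.992 to 1.08 in NC and 1.94 to 2.07 in BSG. Of 36 DNA replication genes 0 were called, with a median of 0.02. The labels name an mRNA library kit. Histone genes are near-identical copies of one another, so reads may be split between them, and whether the share of RNA without a poly(A) tail differed between libraries was not tested.

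**Figure D5:**
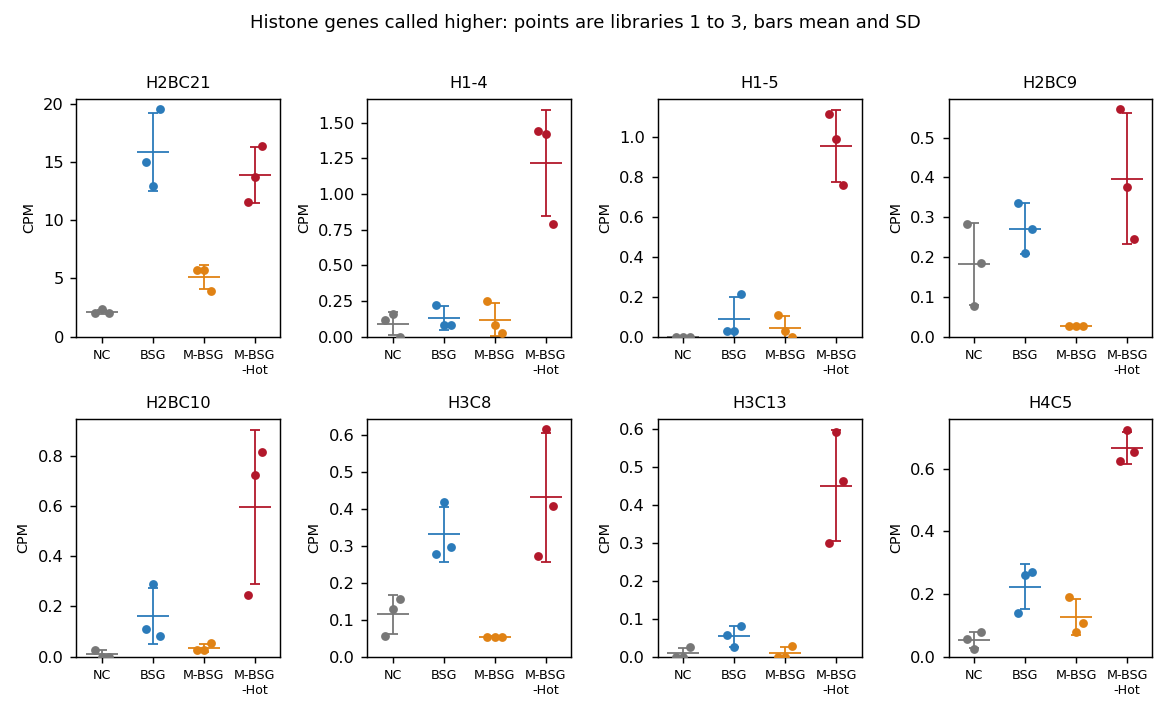
CPM of the 8 histone genes called higher, on linear axes from 0, with a point for each library and the mean and SD of each group of 3. M-BSG-Hot lies above M-BSG in all panels, and apart from H2BC21 the levels are under 2 CPM.

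The upstream 250 bases of H2BC21 (chr1:149886683-149886932, minus strand) are given because it is the histone gene whose call held in all 18 settings. A CArG box, in capitals, begins 164 bases before its start. H2BC21 was the 1 of 12 promoters of higher genes with that motif (8.33%, against 1.05% of tested genes). This share rests on that gene alone, and the motif was chosen after values had been seen.
H2BC21: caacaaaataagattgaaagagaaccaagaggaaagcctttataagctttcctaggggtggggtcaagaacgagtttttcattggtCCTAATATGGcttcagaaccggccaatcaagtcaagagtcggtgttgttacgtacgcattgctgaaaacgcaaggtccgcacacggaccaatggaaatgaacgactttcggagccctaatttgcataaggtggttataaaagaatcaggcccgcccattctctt

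Most of the other gene lists held no called gene. The unfolded protein response and its chaperones (0 of 24) had HSPA5, the chaperone BiP, at -0.11, XBP1 at -0.46, HERPUD1 at -0.29 and DNAJB9 at -0.45. In the integrated stress response (0 of 23) PPP1R15A, a phosphatase subunit that reverses the block on translation, was at -0.40, DDIT3 at 0.13 and ATF3 at -0.13. The p53 targets (0 of 23) included CDKN1A, the cell cycle inhibitor p21, at -0.37 with 157, 141 and 148 CPM across M-BSG against 96.5, 119.9 and 128 CPM across M-BSG-Hot, and GADD45G at 0.95 (adjusted p = 0.0599). Caspases and death receptors (0 of 19), mitosis (0 of 37, median -0.05), DNA repair (0 of 32) and G1 control (0 of 19) had none called.

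Iron and metal genes were listed because the material is named as magnetic, and 0 of 22 iron genes and 0 of 9 metallothionein and zinc genes were called. TFRC, the transferrin receptor, measured 334, 482 and 423 CPM across M-BSG against 497, 379.8 and 337 CPM across M-BSG-Hot, MT2A, a metallothionein, 441, 283 and 377 CPM across M-BSG against 359.9, 385 and 429 CPM across M-BSG-Hot, and HMOX1, which degrades haem, 13.4, 8.02 and 11.3 CPM across M-BSG against 10.3, 11.1 and 10.7 CPM across M-BSG-Hot. The groups of all 3 overlapped. SLC25A37, a mitochondrial iron importer, was the nearest to a call in the iron list (log2 fold change -0.33, adjusted p = 0.0827). NRF2 and glutathione genes (0 of 21), ferroptosis genes (0 of 15), interferon response (0 of 19), cytokines and PTGS2 (0 of 14, PTGS2 at -0.83, adjusted p = 0.0972) and autophagy and lysosome genes (0 of 28) had none.

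Genes of matrix and bone were uncalled as well: collagens (0 of 15, with COL1A1 at 0.10), matrix glycoproteins (0 of 19, 18 of them above 0, median 0.12), matrix proteases (0 of 21) and osteoblast lineage genes (0 of 12). RUNX2, the master factor of the osteoblast lineage, measured 15.6, 15.7 and 16.4 CPM across M-BSG against 11.1, 13.7 and 10.2 CPM across M-BSG-Hot with separate groups (log2 fold change -0.45, adjusted p = 0.239). Nuclear oxidative phosphorylation genes (0 of 43) lay above 0 in 38 cases by small amounts, with a median of 0.06 and a maximum of 0.20, and the mitochondrial genome (0 of 13) had a median of -0.05. Proteasome (0 of 31) and ribosomal protein genes (0 of 44 and 0 of 32) had medians of 0.03, 0.02 and 0.04. The remaining lists also held 0 called genes: MAP kinase feedback (19 tested), serum response factor and actin (13), epithelial-mesenchymal factors (9), TGF-beta (19), Wnt (22), Notch (20), pH and water transport (19) and the circadian clock (17, median -0.16). A count of 0 in lists of these sizes is close to the 0.694% called among all genes, so it says nothing particular of them.

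The mesenchymal and bone markers checked were present, with VIM at 3783 CPM, SPARC at 332, RUNX2 at 15.9 and TWIST1 at 13.5 in M-BSG, while COL1A1 and ALPL were low at 7.59 and 2.53. Of 18 osteoblast lineage genes listed, 12 were tested. Among the rest, SP7, BGLAP, TNFSF11 and SOST were nearly or fully absent, with 3, 5, 0 and 8 counts summed over the 6 libraries. Of immune markers 2 of 8 were tested, CD14 and CD68, with a summed level of 125 to 153 CPM in M-BSG and 120 to 166 in M-BSG-Hot. Endothelial markers summed to 212 to 219 against 229 to 274 CPM, nearly all of it TIE1 (214 and 245), with CDH5 at 0.261 and 0.352. Epithelial markers, mainly KRT8 and KRT18, summed to 1204 to 1470 against 1215 to 1469 CPM. Other mesenchymal markers summed to 320 to 415 against 365 to 447 CPM. None of the marker genes was called, and the part of other cell types in the results was not tested.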

How the data were processed

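RNA-seq of 12 libraries of 143B cells was used, 3 per title (NC; BSG; M-BSG; M-BSG-Hot). Tables deposited by the authors give a whole-number read count and an FPKM value per gene symbol; the authors made both. The sources used here do not give the aligner, the counter or the use of strand. The gene lengths implied by the deposited FPKM values and counts matched the gene's median length over the libraries for 100% of values (relative tolerance 1e-06). The submitters' processing notes list the builds GRCm38 and mm10, which are mouse names, while the symbols are human, so no coordinates were taken from the tables. RefSeq's GRCh38.p14 tables matched 22776 of 24180 symbols directly and 273 by synonym.

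Counts were filtered with filterByExpr (minimum count 10), TMM-scaled and tested with edgeR 4.0.16's quasi-likelihood test (R 4.3.3) over all 12 libraries with 1 mean per group. Adjusted p-values are Benjamini-Hochberg over 15407 genes, with a threshold of 0.05. The SE is the log2 fold change over the square root of F. FPKM served only for levels between genes. Alternatives used limma 3.58.1, DESeq2 1.42.0, other scalings, filters and left-out libraries.

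Genes were named if called, averaging 5 CPM or more, with groups apart and an official-style symbol (up to 15 per direction), or as 1 of up to 4 per list by p, or from a fixed set. The 53 lists (1029 genes, 961 tested) and the comparison itself were chosen with earlier results of these data known. Members named outside this rule were chosen after their values were seen.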

Additional observations from a re-analysis of the deposited data

How the results depend on the processing

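The main counts were 15 genes higher and 92 lower. With the 6 libraries alone they were 3 and 7, with DESeq2 47 and 229, with a stricter count filter 9 higher (89 lower), and with a 2-fold minimum 9 and 36. Leaving out M-BSG 1 with M-BSG-Hot 3 gave 4 and 55, and M-BSG 1 with M-BSG-Hot 1 gave 7 and 42. Alternatives chosen after seeing the data gave 29 and 246 (without BSG 1, M-BSG 1 and M-BSG-Hot 3) and 34 and 178 (gene length trend removed). The cause of these shifts was not tested, apart from the fewer samples in some fits. Leaving out 1 library at a time gave 3 to 10 higher and 22 to 75 lower. The early-response genes called lower, 8 in the main test, were 0 with the 6 libraries alone, 5 without M-BSG 1 and M-BSG-Hot 3, and 4 to 8 leaving out 1 library. The splicing genes called lower, also 8, were 0 with the 6 libraries alone, 13 with DESeq2, 4 without M-BSG 1 and M-BSG-Hot 3, 3 without M-BSG 1 and M-BSG-Hot 1, and 2 to 7 leaving out 1 library. With the replicate number as a block, 14 genes were higher and 89 lower, and 89 of the 107 calls were kept; the numbers share no stated source, and deviations of same-numbered libraries correlated at -0.287, -0.0054 and -0.0777, so they were not treated as pairs. Other size factors, library-size scaling, no filter and limma-voom gave 15 to 18 higher and 82 to 115 lower. None of the 107 called genes changed sign in the 18 settings. Median log2 fold change by gene length ran from 0.033 in the shortest of 5 equal length classes to -0.047 in the longest. Genes with few counts, the histone genes among them, are limited by depth.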
